A study of Homo sapiens with 12 samples.

Results

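The response to TP63 knockdown was compared between the head and neck squamous cell carcinoma lines FaDU and JHU-029, gene by gene, as the knockdown effect in FaDU minus the knockdown effect in JHU-029. All 12 arrays of the series entered the comparison. Each gene was represented by 1 probe set, and 2433 of 18404 genes had a difference past the threshold. The 4 groups held 3 arrays each and were FaDU with a control vector (shControl), FaDU with an shRNA against TP63 (shTP63), JHU-029 with shControl and JHU-029 with shTP63. All cells, controls included, had been transduced with lentivirus, and total RNA was taken 72 hours afterwards. FaDU and JHU-029 are established cell lines, so each result describes these lines and not a set of tumours. The labels list several culture media without saying which line was grown in which, and they do not say whether the replicates were separate cultures. P-values here therefore reflect no more than the variation among these arrays, which may be technical.

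TP63 encodes p63, a transcription factor of the p53 family that maintains the basal layer of stratified epithelia. In squamous carcinoma p63 is commonly present as a form that lacks the amino-terminal activation domain, and it drives keratins, integrins and desmosomal genes of basal cells. The series was made to ask how p63 and ACTL6A, a subunit of SWI/SNF chromatin remodellers, act on YAP, the co-activator restrained by the Hippo kinases. The level of TP63 itself was not analysed here, so the extent of the knockdown in each line was not compared.

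Values are log2 of the intensity that the authors deposited after robust multi-array averaging. Array medians lay between 88.2 and 94.6 in intensity, arrays of 1 group correlated at 0.993 to 0.997 over probe sets, and arrays of different lines correlated at 0.94 to 0.951. The 9 measured squamous epithelial markers had summed intensities of 20853 to 21229 in FaDU shControl and 34359 to 36626 in JHU-029 shControl. The level differed between the control groups for 63.8% of genes, with FaDU higher for 33.4% and JHU-029 higher for 30.4%. A pair of the FaDU controls (replicates 1 and 2) carry an extra title word of unstated meaning, and leaving both out leaves 1 FaDU control array, which is then assumed to vary like the other groups. A difference is called where its adjusted p from limma, by Benjamini and Hochberg over all genes, was under 0.05, and an effect is called a rise or a fall by the same rule. A positive difference means a more positive response in FaDU.

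The response of FaDU was broader than that of JHU-029. In FaDU 4900 genes changed (26.6% of those tested), 2291 upwards (12.4%) and 2609 downwards (14.2%). In JHU-029 580 genes changed (3.15%), 332 upwards (1.8%) and 248 downwards (1.35%). The difference itself passed for 2433 genes (13.2%), of which 914 responded more positively in FaDU (4.97%) and 1519 more negatively (8.25%). At least 1 on the log2 scale separated the effects for 124 genes (0.674%), 64 upwards and 60 downwards. The median size of the effect over all genes was 0.126 in FaDU and 0.071 in JHU-029, beside a median SE of the difference of 0.112. Among the 2433 genes the effect was larger in size in FaDU for 2187 (89.9%). Leaving out any 1 array gave between 1702 and 2509 genes, and 1538 of the 2433 passed in all 12 of those fits. Across the 18404 genes the effects of the lines, which share no arrays, correlated at 0.3; genes are not independent replicates.

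The 2433 genes fall into classes by the sign and call of the effect in each line, which are arithmetic parts of the same fit. In the first class, 778 genes that rose and 1272 that fell in FaDU had no call in JHU-029. P-values were adjusted separately for each line. With fewer changes in JHU-029, a call there needed a larger effect relative to its SE than in FaDU. The lack of a call in JHU-029 is therefore not evidence of no response. A call in JHU-029 alone was made for 45 genes with a positive difference and 68 with a negative difference. Genes called in both lines with the same sign and the larger effect in FaDU numbered 27 with a positive difference and 77 with a negative one. Only 6 genes were called in both lines with the same sign and the larger effect in JHU-029. Opposite calls in both lines were found for 34 genes, and 126 genes had a called difference without a call in either line, 55 positive and 71 negative. The JHU-029 effect was also weighted before subtraction. Weighting enlarges the SE of the difference as well, so calls can be lost even where the JHU-029 effect is small. With FaDU minus 2 times the JHU-029 effect 728 genes passed, and with 3 times the JHU-029 effect 358 passed.

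**Figure D1:**
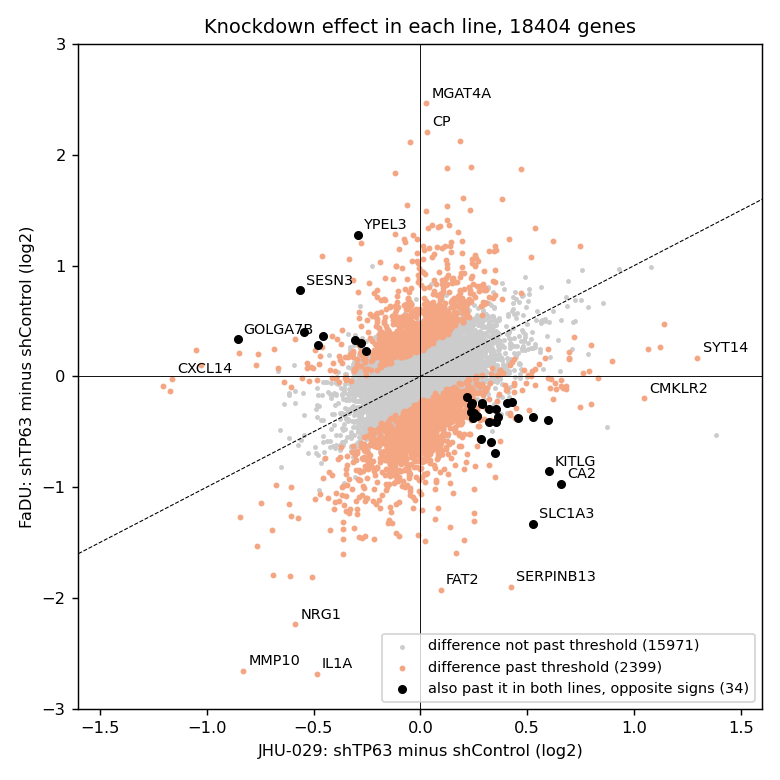
Knockdown effect of every gene in JHU-029 (horizontal axis, log2) and FaDU (vertical axis, log2), each shTP63 mean minus shControl mean of 3 arrays; the dashed line marks equal effects. Coloured points are genes whose difference passed, black points the 34 genes called in both lines with opposite signs, and the points spread further along the FaDU axis than along the JHU-029 axis.

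Opposite calls were found for 34 of the 18404 genes tested, mostly in 1 orientation. 25 genes fell in FaDU and rose in JHU-029 (1.03% of the called genes), while 9 rose in FaDU and fell in JHU-029 (0.37%). Over all genes falls also outnumbered rises in FaDU (14.2% against 12.4%) and rises outnumbered falls in JHU-029 (1.8% against 1.35%). The orientations were not counted separately in the other fits. The 3 largest differences among the 25 genes were those of SLC1A3, a glutamate and aspartate transporter, CA2, a cytosolic carbonic anhydrase, and KITLG, the ligand of the receptor KIT. All 34 differences passed in each of the 12 fits without 1 array. Membership of the class depends on the JHU-029 call and was less stable. Chosen anew in each fit, the class held between 12 genes (replicate number as a fixed block) and 124 genes (array weights). Of the 34 genes, 17, 15 and 17 remained in it without JHU-029 shControl replicates 1, 2 and 3, and 22, 17 and 17 without JHU-029 shTP63 replicates 1, 2 and 3. Without any 1 FaDU array 27 to 32 remained, without the FaDU controls with an extra title word 23, and on the linear scale 19.

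In FaDU, SLC1A3 read 7.75, 7.80 and 7.74 in the shControl arrays and 6.57, 6.40 and 6.34 in the shTP63 arrays, and in JHU-029 it read 7.83, 7.76 and 7.81 and 8.17, 8.36 and 8.45. The shControl arrays of both lines lay within 7.74 to 7.83, and the shTP63 arrays moved away from them in opposite directions with no overlap (36.1% of all genes in FaDU and 24.9% in JHU-029 have shControl and shTP63 arrays that do not overlap). The effect was -1.33 (SE 0.08, adjusted p = 1.92e-07) for the FaDU cells and 0.53 (SE 0.08, adjusted p = 0.00279) for the JHU-029 cells, a difference of -1.86 (SE 0.11, adjusted p = 1.9e-06). In FaDU, CA2 read 9.33, 9.10 and 9.33 in the shControl arrays and 8.22, 8.28 and 8.35 in the shTP63 arrays, and in JHU-029 it read 9.37, 9.35 and 9.32 and 9.83, 10.06 and 10.13. Here too the control levels coincided and the knockdown levels lay on either side of them, with effects of -0.97 and 0.66 and a difference of -1.63 (SE 0.12, adjusted p = 7.72e-06). KITLG read 7.66, 7.42 and 7.52 in FaDU shControl, 6.58, 6.92 and 6.54 in FaDU shTP63, 8.26, 8.38 and 8.21 in JHU-029 shControl and 8.88, 8.91 and 8.87 in JHU-029 shTP63. Its control level was lower in FaDU, and knockdown widened the gap, with effects of -0.85 and 0.60 and a difference of -1.46 (SE 0.14, adjusted p = 4.81e-05).

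The other named genes of this orientation were NABP1, a single-stranded DNA binding protein (difference -1.04), NDUFB1, a subunit of respiratory complex I (-0.99), POLR3G, a subunit of RNA polymerase III (-0.93), ITGB6, an integrin chain that helps activate latent TGF-beta (-0.89), and THBS1, the matrix protein thrombospondin and a YAP target (-0.84). For THBS1, which is among the brightest genes in both lines, the FaDU arrays went from 11.13, 11.12 and 11.16 to 10.46, 10.67 and 10.61 and the JHU-029 arrays from 12.77, 12.78 and 12.80 to 13.10, 13.05 and 13.05. Neither line's groups overlapped. The remaining 17 genes had differences between -0.83 (DUSP10, a phosphatase of stress-activated MAP kinases) and -0.41 (DYNC2I2, an intermediate chain of the ciliary dynein motor).

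In the other orientation, YPEL3, a growth-restraining member of the Yippee-like family, had the largest difference. In FaDU, YPEL3 read 7.11, 7.26 and 7.18 in the shControl arrays and 8.44, 8.50 and 8.45 in the shTP63 arrays, and in JHU-029 it read 6.93, 6.92 and 6.83 and 6.67, 6.52 and 6.62. Its control levels were within 0.5 of each other, and the effects were 1.28 (SE 0.06, adjusted p = 4.14e-08) in FaDU and -0.29 (SE 0.06, adjusted p = 0.0222) in JHU-029, a difference of 1.57 (SE 0.09, adjusted p = 1.9e-06). SESN3, a sestrin that restrains mTORC1, read 7.94, 7.68 and 7.89 in FaDU shControl, 8.72, 8.60 and 8.52 in FaDU shTP63, 10.66, 10.57 and 10.60 in JHU-029 shControl and 9.87, 10.13 and 10.15 in JHU-029 shTP63. Its control level was much higher in JHU-029, and the knockdown brought the lines nearer to each other, with effects of 0.78 and -0.56 and a difference of 1.34 (SE 0.13, adjusted p = 4.92e-05). FST, the activin antagonist follistatin, read 8.82, 8.64 and 8.76 in FaDU shControl, 8.98, 9.22 and 9.22 in FaDU shTP63, 11.87, 11.92 and 11.94 in JHU-029 shControl and 11.43, 11.36 and 11.31 in JHU-029 shTP63. It moved in the same manner as SESN3, towards the level of the other line, with a difference of 0.94 (SE 0.10, adjusted p = 0.000136). The other members of this class were GOLGA7B (1.19), NT5E, the ecto-nucleotidase CD73 (0.82), BCAM, a laminin receptor (0.76), VIPR1, a receptor for vasoactive intestinal peptide (0.64), GRN, the lysosomal glycoprotein progranulin (0.58), and MAST4, a microtubule-associated kinase (0.48). GRN is very bright in both lines and its control means were nearly equal, at 11.56 in FaDU and 11.53 in JHU-029, before it rose by 0.30 in the first and changed by -0.28 in the second.

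**Figure D2:**
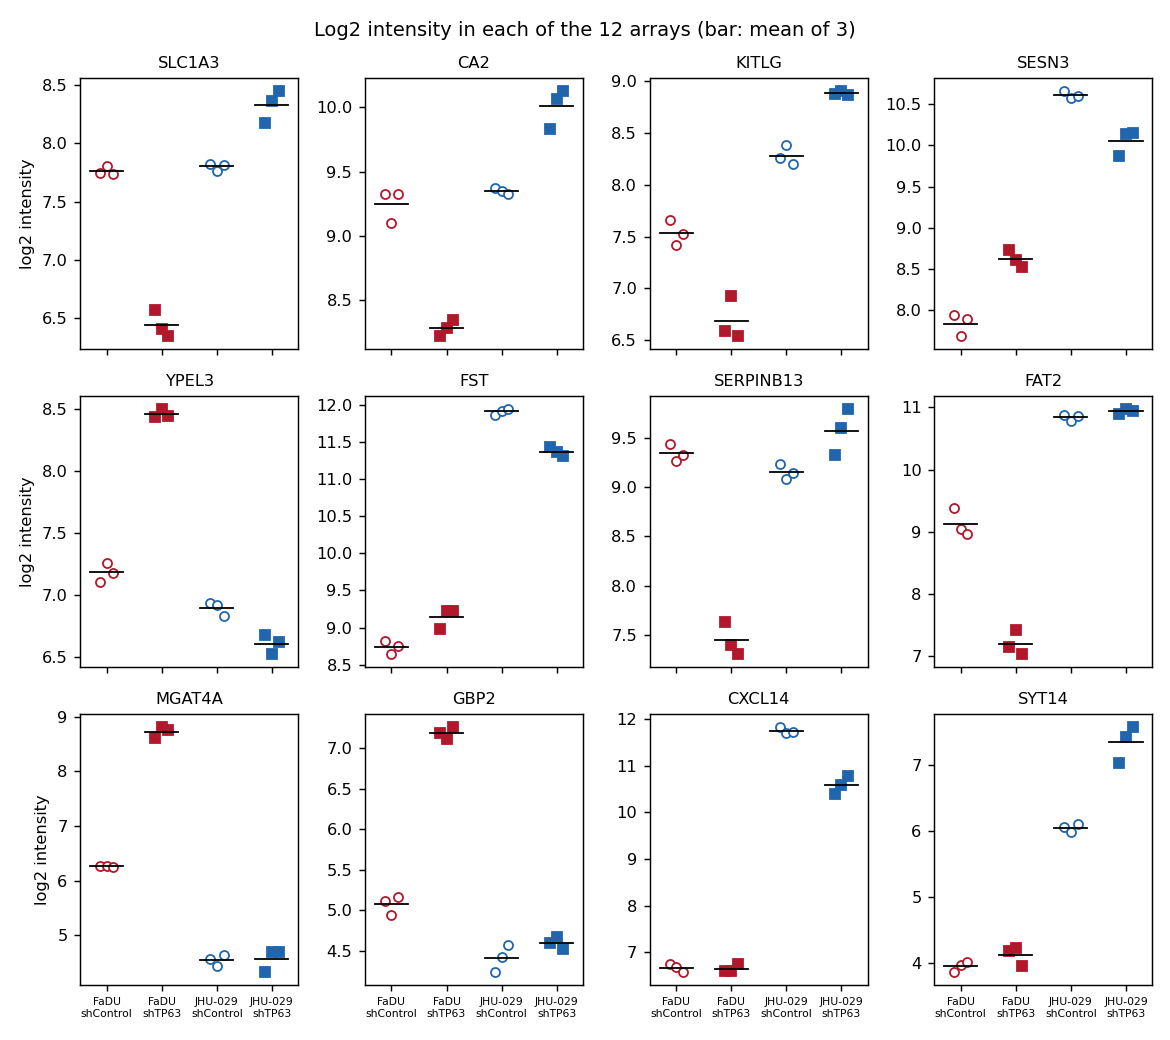
Log2 intensity (vertical axis, scaled separately for each gene) of 12 genes in the 12 arrays by group (horizontal axis); open circles are shControl arrays, filled squares shTP63 arrays, red FaDU, blue JHU-029, and bars the mean of 3. SLC1A3 and CA2 start at the same control level in both lines and part after knockdown, MGAT4A and GBP2 have a call in FaDU alone, and CXCL14 and SYT14 in JHU-029 alone.

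Other than YPEL3, the genes with the 12 largest positive differences rose in FaDU and had no call in JHU-029. MGAT4A, which adds a branch to N-linked glycans, read 6.26, 6.27 and 6.25 in FaDU shControl, 8.61, 8.82 and 8.76 in FaDU shTP63, 4.56, 4.44 and 4.64 in JHU-029 shControl and 4.32, 4.70 and 4.70 in JHU-029 shTP63. The FaDU groups lay more than 2 apart on the log2 scale, a 5.53-fold rise, and the JHU-029 groups overlapped, and the difference was 2.44 (SE 0.14, adjusted p = 1.9e-06). CP, the copper-carrying ferroxidase ceruloplasmin, read 9.61, 9.98 and 9.46 in FaDU shControl, 12.10, 11.85 and 11.72 in FaDU shTP63, 3.75, 4.06 and 3.89 in JHU-029 shControl and 3.98, 4.20 and 3.60 in JHU-029 shTP63. It was near the dim end of the array in all 6 JHU-029 arrays and rose 4.62-fold in FaDU, with a difference of 2.18 (SE 0.23, adjusted p = 0.000106). SLC46A3, a lysosomal membrane transporter, followed at 2.17 (SE 0.12, adjusted p = 1.9e-06), with control means of 5.15 in FaDU and 4.05 in JHU-029. Next came ENPP5, an ecto-nucleotide pyrophosphatase (1.96), GBP2, an interferon-inducible GTPase (1.94), C3, the central complement component (1.75), SELENOP, the selenium carrier of plasma (1.65), and CFB, complement factor B (1.61). The last 3 of the 12 beside YPEL3 were ST3GAL5, the ganglioside GM3 synthase (1.54), TYRP1, a melanosomal protein (1.49), and LIF, a cytokine of the IL-6 family (1.47). In JHU-029 no effect among these genes other than that of YPEL3 passed, and 9 of the 12 had a JHU-029 control mean under 6, where the median control level of all genes was 7.32.

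Of the genes with the 12 largest negative differences, 11 had a JHU-029 control level above the median of all genes, MMP10 being the exception. SERPINB13, a keratinocyte protease inhibitor also called headpin, read 9.44, 9.27 and 9.32 in FaDU shControl, 7.63, 7.40 and 7.30 in FaDU shTP63, 9.23, 9.08 and 9.14 in JHU-029 shControl and 9.32, 9.60 and 9.79 in JHU-029 shTP63. The FaDU groups were far apart, whereas the JHU-029 shTP63 arrays lay above the shControl arrays without a call, the effect being 0.42 (SE 0.11, adjusted p = 0.0698), and the difference was -2.32 (SE 0.16, adjusted p = 5.23e-06). IL1A, the alarmin interleukin-1 alpha, read 8.52, 8.26 and 8.46 in FaDU shControl, 5.40, 5.87 and 5.92 in FaDU shTP63, 10.35, 10.41 and 10.39 in JHU-029 shControl and 9.84, 9.92 and 9.94 in JHU-029 shTP63. It fell in both lines, 6.43-fold in FaDU and 1.4-fold in JHU-029, with a difference of -2.20 (SE 0.16, adjusted p = 8.96e-06). FAT2, a giant protocadherin of squamous epithelia, read 9.39, 9.05 and 8.96 in FaDU shControl, 7.16, 7.43 and 7.03 in FaDU shTP63, 10.88, 10.79 and 10.86 in JHU-029 shControl and 10.89, 10.98 and 10.94 in JHU-029 shTP63. It fell 3.8-fold in FaDU, while its JHU-029 arrays lay between 10.79 and 10.98 whichever shRNA was used, a difference of -2.02 (SE 0.16, adjusted p = 1.25e-05). The other genes of this set were MMP10, a stromelysin (-1.83), VSNL1, a neuronal calcium sensor (-1.76), ADAMTS1, a proteoglycan-cleaving protease (-1.68), NRG1, the ERBB3 and ERBB4 ligand neuregulin (-1.65), KRT15, a basal keratin (-1.56), and the collagenases MMP13 (-1.51) and MMP1 (-1.50). Of the 12, MMP10, IL1A and NRG1 also fell in JHU-029, SLC1A3 and CA2 rose there, and 7 had no JHU-029 call.

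A response that was called in JHU-029 and was larger there than in FaDU was found for 135 of the 2433 genes, 85 rising and 50 falling in JHU-029. Their median control level was 7.94 in FaDU and 8.27 in JHU-029. JHU-029 had the higher control level for 46 of the 85 rising genes and for 41 of the 50 falling ones. The median control difference, FaDU minus JHU-029, was 0.05 over all genes. It was -0.18 over called genes with a positive difference and 0.0 over those with a negative one. The JHU-029 control mean enters both the choice of these genes and their control comparison, so the counts are a description only. CXCL14, a chemokine of normal epithelia, read 6.74, 6.70 and 6.58 in FaDU shControl, 6.60, 6.60 and 6.76 in FaDU shTP63, 11.84, 11.69 and 11.72 in JHU-029 shControl and 10.39, 10.59 and 10.78 in JHU-029 shTP63. The FaDU arrays were dim and overlapped, while the JHU-029 shTP63 arrays all lay far below their controls, with an effect of -1.16 (SE 0.09, adjusted p = 4.32e-05) and a difference of 1.14 (SE 0.13, adjusted p = 0.000156). CA12, a membrane-bound carbonic anhydrase, had control means of 9.80 in JHU-029 and 5.98 in FaDU and changed by -1.05 and 0.24, of which only the first passed. It stands against CA2, the cytosolic enzyme of the same family, which rose in JHU-029. Further falls in JHU-029 were called for FOXP2, a transcription factor (-1.03), ADH7, an alcohol and retinol dehydrogenase of squamous epithelium (-1.21), PALMD, palmdelphin (-0.85), TP53AIP1, a p53-inducible mitochondrial protein (-1.17), and GJB2, connexin 26 (-0.76). None of these 5 had a FaDU call, and their FaDU control means lay between 4.06 (FOXP2) and 6.57 (GJB2).

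Among the genes that rose in JHU-029, SYT14, a synaptotagmin, read 3.86, 3.98 and 4.01 in FaDU shControl, 4.18, 4.22 and 3.95 in FaDU shTP63, 6.05, 5.99 and 6.10 in JHU-029 shControl and 7.03, 7.42 and 7.58 in JHU-029 shTP63. FaDU was at the dim end in both groups, and the JHU-029 effect was 1.30 (SE 0.12, adjusted p = 0.000118), a 2.46-fold rise with a difference of -1.13 (SE 0.17, adjusted p = 0.00102). PLAC8, a small cysteine-rich protein, was dim in the controls of both lines, with means of 5.18 in FaDU and 4.91 in JHU-029, and rose by 1.12 in JHU-029 against 0.26 (SE 0.11, adjusted p = 0.109) in FaDU. The others were CMKLR2, a chemerin receptor (1.05), TMPRSS11E, an epithelial serine protease (0.80), KMO, kynurenine monooxygenase (0.75), and CDA, cytidine deaminase (0.83), beside NDUFB1 and ITGB6 from the class of opposite responses. A second probe set for TMPRSS11E gave a difference of 0.51 that did not pass (adjusted p = 0.431), against -1.05 for the brighter one used here.

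Control level was set beside the response in 3 ways, always as a description, because the control arrays enter both quantities. First, genes were divided by the difference of their control means. Where the controls lay within 0.5 of each other 8.77% of 11967 genes had a called difference. Where the JHU-029 control was higher by 0.5 to 2 the share was 20.8% of 3156 genes, and where it was higher by 2 or more it was 23.7% of 439 genes. With the FaDU control higher the shares were 21.1% of 2592 genes and 30.0% of 250 genes. These groups mix dim and bright genes. Of the 11967 genes with like controls, 4416 had both controls above the median of all genes, and 830 of those 4416 had a called difference. The other shares were not taken among genes above that median, so level and control difference were not told apart. A JHU-029 control below the median of all genes was found for 20.4% of the called genes against 49.7% of all genes. The effect was larger in JHU-029 for 8.01% of the called genes at like control levels for 24.0% of those whose JHU-029 control was higher by 2 or more, and for 17.3% of those whose FaDU control was higher by 2 or more. After knockdown the gap between the lines was wider for 1404 of the 2433 genes and narrower for 1029, and the order of the lines was exchanged for 468.

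Second, 830 called genes had control means within 0.5 of each other and above the median of all genes in both lines, 34.1% of the called genes against 24.0% of all genes. 223 of them had a positive and 607 a negative difference. Their median effects were 0.37 in FaDU and 0.01 in JHU-029 for the former and -0.43 and -0.01 for the latter. The 3 largest negative differences in this set were those of SERPINB13, SLC1A3 and CA2. They were followed by GADD45A, a stress sensor of the p53 pathway, which read 8.89, 8.81 and 8.98 in FaDU shControl, 7.76, 7.73 and 7.64 in FaDU shTP63, 8.76, 8.70 and 8.67 in JHU-029 shControl and 8.76, 8.78 and 8.83 in JHU-029 shTP63. The FaDU group means lay more than 1 apart and the JHU-029 groups overlapped, with a difference of -1.27 (SE 0.08, adjusted p = 4.49e-06). MYBL2, the activator of mitotic genes, fell from 9.93, 10.05 and 10.05 to 8.52, 8.43 and 8.67 in FaDU and went from 10.41, 10.45 and 10.40 to 10.21, 10.20 and 10.20 in JHU-029, where the effect of -0.22 (SE 0.06, adjusted p = 0.101) did not pass. DUSP7, a phosphatase of ERK, read 10.56, 10.59 and 10.62 in FaDU shControl, 9.41, 9.37 and 9.36 in FaDU shTP63, 10.96, 10.96 and 10.94 in JHU-029 shControl and 10.94, 10.94 and 11.004 in JHU-029 shTP63. Its JHU-029 arrays lay within 10.94 to 11.004 in both groups, against a 2.31-fold fall in FaDU and a difference of -1.22 (SE 0.07, adjusted p = 1.9e-06). C11orf24, a Golgi membrane protein, fell in both lines (-1.61 in FaDU and -0.36 in JHU-029), and FJX1, a secreted relative of four-jointed, fell in FaDU (-1.33).

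The positive differences at like control levels were led by SECISBP2L, a homologue of the selenocysteine insertion factor. It read 7.68, 7.57 and 7.55 in FaDU shControl, 8.86, 8.95 and 9.09 in FaDU shTP63, 7.84, 7.71 and 7.86 in JHU-029 shControl and 7.77, 7.97 and 8.06 in JHU-029 shTP63. All 9 arrays other than FaDU shTP63 lay between 7.55 and 8.06, and the difference was 1.24 (SE 0.12, adjusted p = 5.17e-05). SLPI, a secreted inhibitor of leukocyte proteases, read 8.52, 8.52 and 8.54 in FaDU shControl, 9.92, 9.88 and 9.69 in FaDU shTP63, 8.58, 8.14 and 8.48 in JHU-029 shControl and 8.46, 8.64 and 8.61 in JHU-029 shTP63. Again the FaDU shTP63 arrays stood alone, with a difference of 1.13 (SE 0.14, adjusted p = 0.000339). ITGB2, the beta chain of leukocyte integrins (1.06), ZFYVE1, a phosphoinositide-binding protein of early autophagosomes (1.06), PDCD4, a translational inhibitor (0.86), HBP1, a repressor of cell-cycle genes (0.86), and AGO4, an Argonaute protein (0.84), rose in FaDU without a call in JHU-029. TGFB2, a transforming growth factor, rose in both, by 1.24 in FaDU and 0.41 in JHU-029.

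Lastly, the called genes whose control means lay at least 2 apart were listed by line and direction. A positive difference was seen for 40 genes with the higher control in FaDU and 57 with the higher control in JHU-029, a negative one for 35 and 47. The 6 named genes of the first group rose in FaDU and were dim in JHU-029 (control means of 3.90 for CP to 4.84 for TYRP1). They were CP, ENPP5, SELENOP, TYRP1, STEAP4, a metalloreductase (1.40), and SATB1, a chromatin organiser (1.31). STEAP4 rose in JHU-029 as well, from 4.27, 4.25 and 4.22 to 4.47, 4.77 and 4.91, and in FaDU from 7.77, 7.81 and 7.93 to 9.71, 9.74 and 9.68. For the 6 named genes of the second group the lines came closer together. This follows from the choice, because their differences were positive and smaller than the control gap of at least 2. ST3GAL5, KLHL24, a substrate adaptor for keratin turnover (1.39), and PXDN, a peroxidase that cross-links collagen IV (1.27), rose in FaDU from lower levels than JHU-029 held, while CA12 and CXCL14 fell in JHU-029 and SESN3 did both. PXDN read 7.75, 7.72 and 7.51 in FaDU shControl, 8.80, 9.16 and 9.11 in FaDU shTP63, 9.69, 9.65 and 9.65 in JHU-029 shControl and 9.70, 9.82 and 9.75 in JHU-029 shTP63. FaDU shTP63 stopped short of every JHU-029 array.

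Where FaDU had the higher control and the more negative response, the fall of the 6 named genes again went towards the JHU-029 level. That the lines came nearer follows here too from the choice, the differences being smaller than the control gap. MMP10 had control means of 10.23 in FaDU and 7.19 in JHU-029 and fell in both lines, 6.3-fold and 1.78-fold. PLAT, tissue plasminogen activator (-1.26), STAC, an adaptor of calcium channels (-0.95), OTUB2, a deubiquitinase (-0.90), and S100A14, an epithelial calcium-binding protein (-0.84), fell in FaDU alone by call, and NDUFB1 had opposite calls. Where JHU-029 had the higher control, the 6 named genes fell in FaDU from levels already below those of JHU-029. VSNL1 read 7.96, 7.82 and 7.94 in FaDU shControl, 6.22, 6.22 and 6.50 in FaDU shTP63, 11.01, 10.95 and 10.95 in JHU-029 shControl and 11.07, 11.12 and 11.22 in JHU-029 shTP63. The gap between the lines, already 3 on the log2 scale, widened, with a difference of -1.76 (SE 0.11, adjusted p = 3.62e-06). A wider gap is fixed by the choice of this group, whose control was higher in JHU-029 and whose difference was negative. CLCA2, a p63-associated membrane protein, went from 5.98, 5.60 and 5.96 to 4.85, 4.02 and 4.70 in FaDU and from 11.41, 11.26 and 11.29 to 11.08, 11.19 and 11.29 in JHU-029. The FaDU arrays approached the dim end of the scale, JHU-029 stayed bright, and the difference was -1.19 (SE 0.25, adjusted p = 0.00731). ADAMTS1, NRG1, JAG1, a Notch ligand (-1.18), and TNS4, a focal adhesion tensin (-1.15), had the same arrangement.

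For genes of unequal control level the scale matters, because an equal loss of intensity is a larger fold change at the lower level. Of the 2433 genes, 2053 also passed with the same sign when the linear intensities were compared, 43 had the opposite sign and 10 passed with the opposite sign. NRG1 and JAG1 were among those 10. NRG1 fell 4.72-fold in FaDU and 1.5-fold in JHU-029, which was -189 and -833 in intensity and a linear difference of 644 (adjusted p = 6.01e-08). JAG1 changed by -306 in FaDU and -691 in JHU-029 in intensity, a linear difference of 385 (adjusted p = 0.000806). On this scale IL1A (linear difference 94), CLCA2 (189), TNS4 (130), DUSP6 (26), CLDN1 (28) and DSG3 (7) also had the opposite sign, without passing. For these 8 genes the sign of the difference therefore holds for fold change alone. SERPINB13, SLC1A3, CA2, FAT2, VSNL1 and MMP10 kept their sign and their call on the linear scale.

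**Figure D3:**
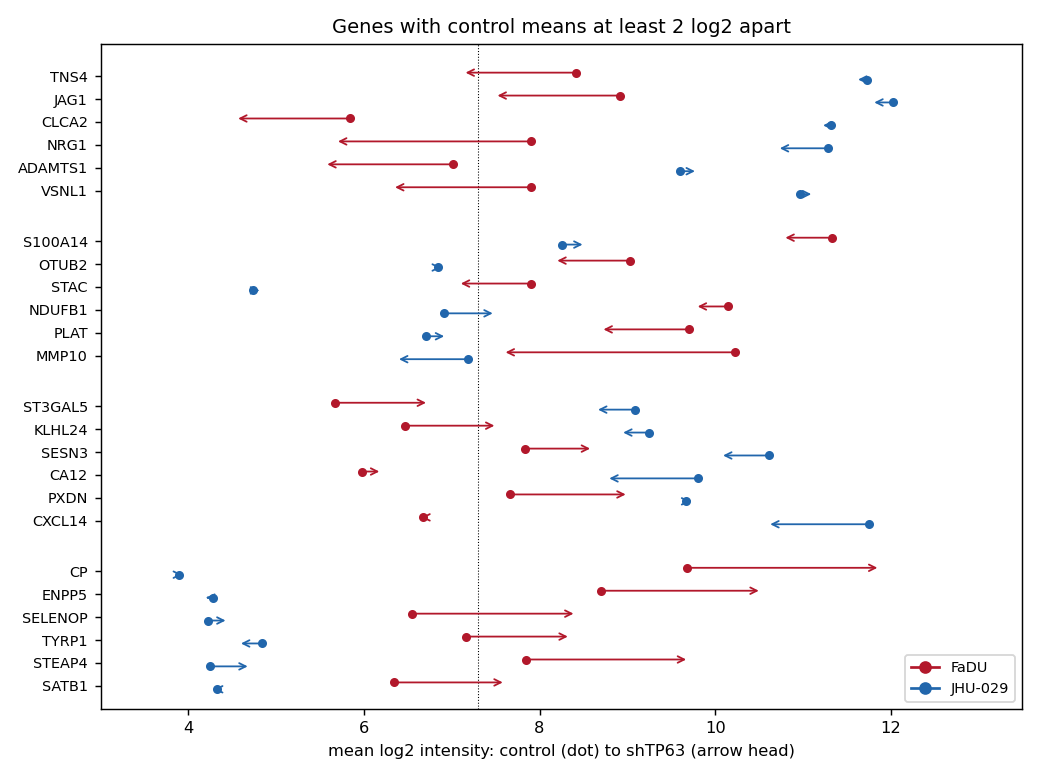
Mean log2 intensity (horizontal axis) of 24 genes whose control means differ by at least 2, from shControl (dot) to shTP63 (arrow head), red FaDU and blue JHU-029; the dotted line is the median of all gene means. From the top, the blocks show falls in FaDU from a level below JHU-029, falls in FaDU from a level above it, rises relative to JHU-029 with the higher control in JHU-029, and rises in FaDU of genes that JHU-029 holds below the median.

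Functions were described through 39 gene lists, by the number of measured members whose difference passed and by medians, beside 13.2% and a median difference of 0.01 for all genes. Among 33 basal and p63-associated genes, 23 had a negative called difference and 0 a positive one, with a median difference of -0.56. The median effect was -0.64 in FaDU, where 26 fell and 0 rose, and -0.11 in JHU-029, where 2 fell and 0 rose. JHU-029 held most of these genes at the same or a higher control level, with only 2 of 33 below the median of all genes. FAT2, ADAMTS1 and KRT15 had the largest differences. KRT15 read 8.67, 8.64 and 8.85 in FaDU shControl, 7.60, 7.40 and 7.26 in FaDU shTP63, 10.42, 10.21 and 10.23 in JHU-029 shControl and 10.39, 10.51 and 10.72 in JHU-029 shTP63. It fell in FaDU and had no call in JHU-029, where the effect was 0.25 (SE 0.11, adjusted p = 0.275). The 2 genes that fell in both lines and still differed were NECTIN1, an adhesion receptor (difference -1.01), and S100A2, a calcium-binding protein of basal cells (-0.60). On the linear scale 15 members had a negative and 2 a positive called difference, and with the JHU-029 effect weighted by 2 the negative count was 12. SNAI2, a repressor of differentiation in basal cells and listed among mesenchymal genes, read 10.69, 10.79 and 10.78 in FaDU shControl, 9.43, 9.32 and 9.23 in FaDU shTP63, 12.74, 12.62 and 12.68 in JHU-029 shControl and 12.63, 12.66 and 12.71 in JHU-029 shTP63. Its 6 JHU-029 arrays lay within 12.62 to 12.74, and the difference was -1.42 (SE 0.09, adjusted p = 2.77e-06). Keratinocyte differentiation genes showed no common direction, with 5 positive and 7 negative of 56, and the positive count was 3 without JHU-029 shControl replicate 1 or 3 or FaDU shTP63 replicate 3.

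Junction and matrix genes moved in both directions. In the desmosome and connexin list 5 of 21 had a negative and 3 a positive difference. The negative ones were DSC3, DSG3, PKP1, PKP4 and CDH3, adhesion and plaque proteins that fell in FaDU. The positive ones were DSG1, GJB6 and GJB2, a differentiation-type desmoglein and a pair of connexins, which fell in JHU-029 by call from control means of 7.34, 9.65 and 9.07, against 4.78, 5.72 and 6.57 in FaDU. CDH3 kept its call in 1 and PKP4 in 8 of the 12 fits without 1 array, and the negative count was 3 without JHU-029 shControl replicate 2 or 3, FaDU shControl replicate 1 or JHU-029 shTP63 replicate 3. Tight junction genes gave 5 positive and 3 negative of 25. CGN, cingulin (0.99), and TJP3, a zonula occludens protein (0.88), rose in FaDU, while CLDN7 (-0.82) rose in JHU-029 from a control mean of 7.79 against 11.53 in FaDU. Among 23 matrix metalloproteases and related genes 5 were positive and 5 negative. MMP13 read 11.55, 11.63 and 11.57 in FaDU shControl, 10.06, 10.18 and 10.04 in FaDU shTP63, 12.35, 12.24 and 12.25 in JHU-029 shControl and 12.24, 12.29 and 12.38 in JHU-029 shTP63. The collagenase was among the brightest genes of both lines, fell 2.81-fold in FaDU and stayed within 12.24 to 12.38 in JHU-029. MMP1 and MMP12, the latter with a called difference in 7 of the 12 fits without 1 array, also fell in FaDU without a JHU-029 call, whereas MMP7 (0.80) and TIMP2 (0.60) rose in both lines and more in FaDU. The positive count was 3 without JHU-029 shControl replicate 1 and 3 without JHU-029 shTP63 replicate 3. Among 11 clade B serpins, SERPINB13, SERPINB7, SERPINB5 and SERPINB9 had a negative and SERPINB1 a positive difference. SERPINB9 kept its call in 3 of the 12 fits without 1 array.

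Secreted signals and their feedback genes changed in both directions. Of 42 cytokine and chemokine genes 6 were positive and 8 negative. IL1B read 8.52, 8.34 and 8.66 in FaDU shControl, 6.90, 7.12 and 7.10 in FaDU shTP63, 8.12, 8.21 and 8.12 in JHU-029 shControl and 7.75, 7.85 and 7.77 in JHU-029 shTP63. It fell in both lines, 2.76-fold in FaDU and 1.28-fold in JHU-029, with a difference of -1.10 (SE 0.12, adjusted p = 0.000115). IL24, ICAM1, IL18 and TNFAIP3 were also negative, and LIF, CXCL17, an epithelial chemokine (1.11), and IL1RL1, the receptor for IL-33 (0.77), rose in FaDU. IL6 rose in JHU-029 by 0.58 (SE 0.07, adjusted p = 0.000994) and IL36G fell there, with an effect of -0.64 (SE 0.07, adjusted p = 0.000285). Among 15 ERBB receptors and ligands, the ligands NRG1 and TGFA (-0.87) were negative and the receptors ERBB3 (0.52) and ERBB2 (0.33) and the receptor inhibitor LRIG1 (0.43) were positive. ERBB3 read 8.88, 8.89 and 8.93 in FaDU shControl, 9.54, 9.56 and 9.49 in FaDU shTP63, 7.36, 7.27 and 7.28 in JHU-029 shControl and 7.37, 7.41 and 7.43 in JHU-029 shTP63. On the linear scale 4 members were positive and 0 negative. Of 30 ERK feedback and output genes 5 were negative and 3 positive, but quantile normalisation gave 3 negative and 6 positive. The negative count was 3 in 8 of the 12 fits without 1 array, namely without JHU-029 shControl replicate 1 or 2, FaDU shControl replicate 1 or 3, JHU-029 shTP63 replicate 1 or 2 or FaDU shTP63 replicate 2 or 3. The positive count was 5 without FaDU shControl replicate 2. DUSP6, the ERK phosphatase, fell in both lines, 3.48-fold in FaDU and 1.52-fold in JHU-029.

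Of 58 ribosome biogenesis genes 38 had a negative called difference and 0 a positive one, with a median difference of -0.35. In FaDU 51 of 58 fell and 0 rose, with a median effect of -0.37. In JHU-029 2 fell and 0 rose, with a median of -0.05. All 58 lay above the median of all genes in both control groups. RRS1, an assembly factor of the large subunit, read 9.72, 9.64 and 9.74 in FaDU shControl, 8.69, 8.77 and 8.81 in FaDU shTP63, 9.53, 9.46 and 9.54 in JHU-029 shControl and 9.42, 9.49 and 9.30 in JHU-029 shTP63. The FaDU groups lay almost 1 apart and the JHU-029 groups overlapped, with a difference of -0.84 (SE 0.09, adjusted p = 9.75e-05). TCOF1, the nucleolar protein treacle, gave -0.75 (SE 0.08, adjusted p = 7.99e-05). No list member differed by as much as 1. With the JHU-029 effect weighted by 2 and 3, which also enlarges the SE, the negative count was 9 and 0. It was 22 with the replicate number as a fixed block and 26 to 37 without 1 array. The 36 serine synthesis and ATF4 genes had 18 negative and 2 positive differences and a median of -0.28. SLC7A11, the cystine transporter, had a difference of -1.16 (SE 0.11, adjusted p = 5.23e-05), and PYCR1, an enzyme of proline synthesis, -0.98 (SE 0.09, adjusted p = 2.95e-05). PYCR1 read 10.79, 10.75 and 10.91 in FaDU shControl, 9.72, 9.86 and 9.78 in FaDU shTP63, 10.31, 10.19 and 10.25 in JHU-029 shControl and 10.21, 10.21 and 10.18 in JHU-029 shTP63. Its JHU-029 groups overlapped. VLDLR and CEBPB, the exceptions, had differences of 0.40 and 0.45; VLDLR lost the call in 3 of the 12 fits without 1 array (adjusted p of up to 0.0618).

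Of 48 S phase genes 18 were negative and 1 positive, and of 54 G2 and mitosis genes 18 were negative and 0 positive. Without 1 array the negative counts were 13 to 21 and 12 to 17, and with the replicate number as a fixed block 12 and 9. The median effects of the S phase list were -0.185 in FaDU and 0.058 in JHU-029, those of the mitotic list -0.108 and 0.091. CDCA7, a chromatin factor of S phase, had the most negative S phase difference, -0.79 (SE 0.09, adjusted p = 0.000136). CCNE2, a cyclin of the G1 to S transition, was the positive exception and read 8.62, 8.43 and 8.63 in FaDU shControl, 9.60, 9.59 and 9.70 in FaDU shTP63, 10.12, 10.11 and 10.15 in JHU-029 shControl and 10.43, 10.38 and 10.34 in JHU-029 shTP63. It rose in both lines, and the difference was 0.81 (SE 0.09, adjusted p = 0.000135). Among mitotic genes MYBL2 came first, then CDCA8, a subunit of the chromosomal passenger complex, at -0.87 (SE 0.15, adjusted p = 0.0025). Of 72 mitochondrial ribosomal protein genes 17 were negative and 0 positive. That count was 10 and 9 without JHU-029 shControl replicates 1 and 3, and 10 and 11 without JHU-029 shTP63 replicates 2 and 3. Among 33 NRF2-type detoxification genes 13 were negative and 2 positive. The 2 were ABCC3, a drug exporter (0.77), and ADH7, and the negative ones included GPX2, a glutathione peroxidase (-1.19), and UGDH, UDP-glucose dehydrogenase (-1.09). Cholesterol and fatty acid synthesis genes fell in FaDU for 17 of 28 members, but the difference passed for only ELOVL6, EBP and FASN. EBP and FASN kept their calls in 2 of the 12 fits without 1 array, and quantile normalisation left 1 negative and 1 positive.

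**Figure D4:**
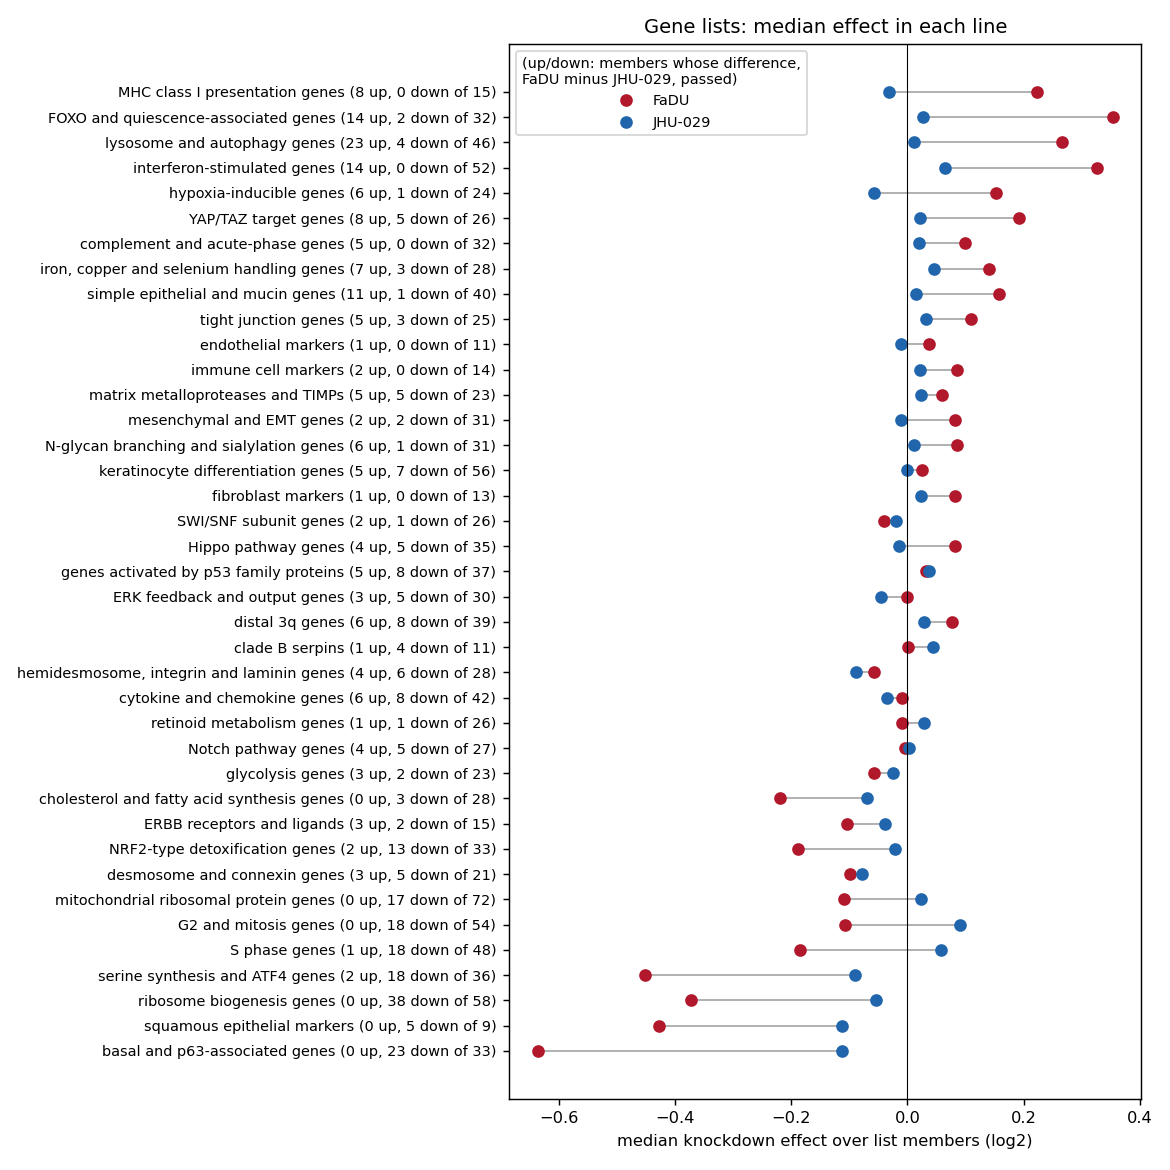
Median knockdown effect (horizontal axis, log2) over the members of each of 39 gene lists, red FaDU and blue JHU-029, ordered by the median difference; the labels give how many members had a positive (up) or negative (down) called difference. Basal and p63-associated genes lie at -0.64 in FaDU and -0.11 in JHU-029, ribosome biogenesis genes at -0.37 and -0.05, and lysosome and autophagy genes at 0.27 and 0.01.

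Of 46 lysosome and autophagy genes 23 had a positive and 4 a negative difference, with median effects of 0.27 in FaDU and 0.01 in JHU-029. CTSO, a cysteine cathepsin, read 6.24, 6.35 and 6.26 in FaDU shControl, 7.77, 7.90 and 7.69 in FaDU shTP63, 5.68, 5.68 and 5.33 in JHU-029 shControl and 5.44, 5.93 and 6.01 in JHU-029 shTP63. It rose 2.84-fold in FaDU and had no call in JHU-029, a difference of 1.27 (SE 0.19, adjusted p = 0.00108). WIPI1, a phosphoinositide-binding protein of autophagosome formation, read 7.37, 7.41 and 7.41 in FaDU shControl, 8.31, 8.15 and 8.25 in FaDU shTP63, 10.65, 10.58 and 10.62 in JHU-029 shControl and 10.20, 10.46 and 10.48 in JHU-029 shTP63. FaDU rose towards the higher JHU-029 level, with a difference of 1.08 (SE 0.10, adjusted p = 5.49e-05). The 4 negative members were LIPA, the lysosomal acid lipase (-0.90), CTSH (-0.55), TFE3 (-0.47, with a call in 5 of the 12 fits without 1 array) and GLA (-0.47). Without the FaDU controls with an extra title word the positive count was 14. Among 32 FOXO and quiescence-associated genes 14 were positive and 2 negative, with a median difference of 0.28. After YPEL3 the largest was CPEB4, a cytoplasmic polyadenylation factor, which read 6.59, 6.66 and 6.32 in FaDU shControl, 8.17, 8.15 and 8.09 in FaDU shTP63, 7.62, 7.45 and 7.44 in JHU-029 shControl and 7.54, 7.76 and 7.80 in JHU-029 shTP63 and differed by 1.42 (SE 0.13, adjusted p = 4.84e-05). The 2 negative ones were CDKN1A, the cell-cycle inhibitor p21 (-0.72), and CCND2, a G1 cyclin (-0.37), the latter with a call in 2 of the 12 fits without 1 array. Genes activated by p53-family proteins gave 5 positive and 8 negative of 37. CYFIP2 (1.25) and TP53INP1 (1.12) rose in FaDU and GADD45A, SFN and CDKN1A fell there.

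Interferon-stimulated genes had 14 positive and 0 negative differences among 52, with a median of 0.24. In FaDU 31 rose and 2 fell, with a median effect of 0.33, and in JHU-029 2 rose and 0 fell, with a median of 0.06. GBP2 read 5.11, 4.94 and 5.16 in FaDU shControl, 7.19, 7.11 and 7.26 in FaDU shTP63, 4.23, 4.42 and 4.57 in JHU-029 shControl and 4.59, 4.67 and 4.51 in JHU-029 shTP63. The 3 FaDU shTP63 arrays stood above the other 9 by almost 2, with a difference of 1.94 (SE 0.12, adjusted p = 3.76e-06). OAS2, an antiviral oligoadenylate synthetase, read 6.64, 6.34 and 6.62 in FaDU shControl, 7.43, 7.48 and 7.36 in FaDU shTP63, 10.56, 10.46 and 10.53 in JHU-029 shControl and 10.16, 10.48 and 10.42 in JHU-029 shTP63. Its control level was far higher in JHU-029, where the groups overlapped, and FaDU rose part of the way, with a difference of 1.05 (SE 0.13, adjusted p = 0.000338). The MHC class I presentation genes had 8 positive and 0 negative differences among 15. PSMB9, an immunoproteasome subunit, read 9.35, 9.35 and 9.38 in FaDU shControl, 10.01, 10.13 and 9.99 in FaDU shTP63, 8.87, 8.72 and 8.76 in JHU-029 shControl and 8.72, 8.84 and 8.86 in JHU-029 shTP63. FaDU shTP63 stood above the rest, with a difference of 0.66 (SE 0.09, adjusted p = 0.000529). ERAP1, which trims peptides for MHC class I, gave 0.60 (SE 0.11, adjusted p = 0.00324). The interferon count was 9 without JHU-029 shControl replicate 1 or 3 and 8 without the FaDU controls with an extra title word. The MHC count was 5 without JHU-029 shControl replicate 3 and 5 without those FaDU controls.

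The core of the interferon-stimulated response element is a pair of GAAA blocks separated by 2 free bases. It was searched on both strands of RefSeq promoters of GRCh38.p14 (250 bases before to 50 after the start). It was found in 26 of 42 interferon-stimulated genes with a promoter (61.9%), among them 6 of the 11 with a called difference. The share was 3.65% of all 27305 promoters and 3.04% of the 14230 promoters of tested genes. The 61.9% describes the list, called or not, and a link of the matches to the called difference was not tested. In MHC class I presentation genes, a search added after the data had been seen, it was found in 8 of 14 (57.1%), among them 4 of the 7 with a called difference. Stretches upstream of the start are shown for called members of both lists, chosen after their values were seen, with every match in capitals; adjacent matches may overlap.
IFI27 (chr14:94110608-94110670, plus strand): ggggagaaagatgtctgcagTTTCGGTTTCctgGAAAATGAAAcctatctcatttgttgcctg
IFIT3 (chr10:89327821-89327904, plus strand): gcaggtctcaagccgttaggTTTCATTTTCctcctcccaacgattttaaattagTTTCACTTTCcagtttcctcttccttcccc
PARP14 (chr3:122680790-122680838, plus strand): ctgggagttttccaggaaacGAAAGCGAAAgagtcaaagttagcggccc
B2M (chr15:44711353-44711408, plus strand): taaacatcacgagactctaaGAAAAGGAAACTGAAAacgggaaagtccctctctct
PSMB10 (chr16:67936851-67936891, minus strand): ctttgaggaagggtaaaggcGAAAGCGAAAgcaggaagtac
TAPBP (chr6:33314079-33314118, minus strand): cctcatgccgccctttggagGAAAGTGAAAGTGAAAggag

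IFI27, an interferon-inducible mitochondrial protein, had a difference of 0.93 (SE 0.11, adjusted p = 0.000265), with control means of 8.19 in FaDU and 9.96 in JHU-029. IFIT3, which binds foreign RNA with its partners, gave 0.57 (SE 0.12, adjusted p = 0.00894), and PARP14, an ADP-ribosyltransferase, 0.46 (SE 0.13, adjusted p = 0.036). B2M, the light chain of MHC class I, gave 0.32 (SE 0.07, adjusted p = 0.00931), PSMB10, an immunoproteasome subunit, 0.55 (SE 0.10, adjusted p = 0.00438), and TAPBP, the peptide-loading chaperone tapasin, 0.46 (SE 0.07, adjusted p = 0.000857). PARP14 kept its call in 4 of the 12 fits without 1 array. In all 6 genes the FaDU effect was a called rise and the JHU-029 effect had no call. A match is only a match of letters and does not show that a factor binds.

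The E-box CACGTG, a palindrome read the same on both strands, was searched in the lists with the highest counts of negative and positive calls, also after the data had been seen. It was found in 20 of 47 ribosome biogenesis promoters (42.6%), 15 of them among 31 called genes. It was also found in 9 of 35 lysosome and autophagy promoters (25.7%), 7 of them among 21 called genes. The share was 7.43% of all promoters and 8.88% of the 14230 promoters of tested genes. These lists moved in opposite directions in FaDU, as a pair of members of each shows, chosen after their values were seen, with matches in capitals.
IMP4 (chr2:130342674-130342719, plus strand): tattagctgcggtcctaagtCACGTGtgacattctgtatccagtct
UTP4 (chr16:69132613-69132648, plus strand): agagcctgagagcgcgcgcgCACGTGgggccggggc
CTSD (chr11:1763949-1763994, minus strand): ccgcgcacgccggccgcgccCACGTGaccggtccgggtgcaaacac
MCOLN1 (chr19:7522563-7522623, plus strand): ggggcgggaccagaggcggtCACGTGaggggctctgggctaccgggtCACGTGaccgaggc

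IMP4 and UTP4, processing factors of the small subunit, had differences of -0.36 (SE 0.09, adjusted p = 0.0222) for IMP4 and -0.35 (SE 0.10, adjusted p = 0.0334) for UTP4. CTSD, an aspartic cathepsin, and MCOLN1, a lysosomal cation channel, had differences of 0.33 (SE 0.08, adjusted p = 0.0137) for CTSD and 0.33 (SE 0.09, adjusted p = 0.0267) for MCOLN1. In the 12 fits without 1 array IMP4 was called in 10, UTP4 in 3, CTSD in 12 and MCOLN1 in 5. The core of a p53-family site, a pair of CATG blocks with 6 free bases between them, was found in 0 of 22 promoters of basal and p63-associated genes. The share was 0.392% of all promoters and 0.246% of those of tested genes. The count of 0 says only that these letters are not in those windows.

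Simple epithelial and mucin genes rose in FaDU for 15 of 40 members and in JHU-029 for 3, complement and acute-phase genes for 9 of 32 and 2, and iron, copper and selenium handling genes for 11 of 28 and 4. Among 40 simple epithelial and mucin genes 11 were positive and EHF, an epithelial transcription factor, was negative. EHF kept its call in 1 of the 12 fits without 1 array. MUC20 and MUC1, membrane mucins, gave 1.31 (SE 0.15, adjusted p = 0.000175) for MUC20 and 1.26 (SE 0.15, adjusted p = 0.000182) for MUC1. MUC1 read 6.94, 6.99 and 7.003 in FaDU shControl, 8.62, 8.19 and 8.16 in FaDU shTP63, 6.51, 6.47 and 6.56 in JHU-029 shControl and 6.51, 6.55 and 6.72 in JHU-029 shTP63, so FaDU shTP63 stood above the other 9 arrays. In JHU-029, 33 of the 40 control levels lay below the median of all genes, in FaDU 28. Of 32 complement and acute-phase genes 5 were positive, namely CP, C3, CFB, LCN2, an iron-siderophore binding protein (1.22), and FGB, a fibrinogen chain (1.05). C3 read 7.17, 7.30 and 7.08 in FaDU shControl, 9.13, 9.16 and 8.88 in FaDU shTP63, 5.64, 5.63 and 5.72 in JHU-029 shControl and 5.88, 5.66 and 5.83 in JHU-029 shTP63. The JHU-029 groups overlapped, and 25 of the 32 genes had a JHU-029 control below the median. Of 28 iron, copper and selenium handling genes 7 were positive and 3 negative. CYBRD1, a duodenal-type ferrireductase, rose in FaDU by 0.95 (SE 0.07, adjusted p = 1.9e-06) from a control mean of 6.18, beside 11.21 in JHU-029. The negative ones were STEAP1 (-0.81), STEAP3 (-0.48) and the zinc and iron transporter SLC39A14 (-0.43).

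Hippo pathway and YAP/TAZ target genes, the series' own question, showed no single direction. Of 35 Hippo pathway genes 4 were positive and 5 negative. VGLL1, a TEAD cofactor, read 8.81, 8.78 and 9.06 in FaDU shControl, 10.01, 10.004 and 9.75 in FaDU shTP63, 5.40, 5.08 and 5.43 in JHU-029 shControl and 5.28, 5.36 and 5.23 in JHU-029 shTP63. It rose in FaDU from a level that JHU-029 did not reach in any array, with a difference of 1.05 (SE 0.15, adjusted p = 0.000769). AMOT, an angiomotin that binds YAP, gave 0.99 (SE 0.13, adjusted p = 0.000449), and its relatives AMOTL1 and AMOTL2 gave -0.91 and 0.42. FRMD6, an upstream activator of the Hippo kinases, fell from 8.91, 8.65 and 8.91 to 7.59, 7.67 and 7.66 in FaDU and went from 10.21, 10.15 and 10.10 to 10.07, 10.13 and 10.15 in JHU-029, a difference of -1.15 (SE 0.10, adjusted p = 3.06e-05). The YAP1 difference of -0.24 (SE 0.07, adjusted p = 0.0358) kept its call in 3 of the 12 fits without 1 array, those without FaDU shControl replicate 2, JHU-029 shTP63 replicate 1 or FaDU shTP63 replicate 1. The negative count was 3 without JHU-029 shControl replicate 3, JHU-029 shTP63 replicate 2 or 3 or FaDU shTP63 replicate 2. For WWC1, WWTR1 and ACTL6A the difference did not pass, with estimates of 0.21 (SE 0.09, adjusted p = 0.159) for WWC1, 0.03 (SE 0.08, adjusted p = 0.891) for WWTR1 and -0.06 (SE 0.09, adjusted p = 0.716) for ACTL6A. The sign of the WWTR1 estimate changed under several settings. Of 26 YAP/TAZ target genes 8 were positive and 5 negative. Beside GADD45A, FJX1 and THBS1, the negative ones were AMOTL1 and ASAP1 (called in 5 of the 12 fits without 1 array), and the positive ones were led by TGFB2 and NT5E. TGFB2 read 9.40, 9.31 and 9.33 in FaDU shControl, 10.49, 10.66 and 10.60 in FaDU shTP63, 8.81, 9.01 and 8.87 in JHU-029 shControl and 9.35, 9.31 and 9.28 in JHU-029 shTP63, so both lines rose and FaDU rose more. The TEAD core GGAATG was present in 8 of 18 promoters of this list (44.4%), among them 3 of the 10 with a called difference. The share was 14.0% of all promoters and 11.6% of those of tested genes. Among 26 SWI/SNF subunit genes 3 passed, ARID1A (-0.31), SMARCD3 (0.47) and DPF1 (0.28), the last with a call in 1 of the 12 fits without 1 array. That is 11.5% of the list, near the 13.2% of all genes.

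Squamous epithelial markers gave 0 positive and 5 negative of 9, and mesenchymal genes 2 and 2 of 31. The mesenchymal positive count was 5 without FaDU shControl replicate 2 and 1 in 9 of the 12 fits without 1 array, those that keep that array other than the fits without JHU-029 shTP63 replicate 1 or FaDU shTP63 replicate 3. The negative count was 1 without JHU-029 shControl replicate 1 or JHU-029 shTP63 replicate 2 or 3. Hypoxia-inducible genes gave 6 positive and 1 negative of 24, N-glycan branching and sialylation genes 6 and 1 of 31, Notch pathway genes 4 and 5 of 27, and glycolysis genes 3 and 2 of 23. Without 1 array the positive count was 4 to 8 for hypoxia-inducible genes and 5 to 8 for N-glycan genes. The negative count was 2 for hypoxia-inducible genes without FaDU shControl replicate 1 and 2 for N-glycan genes without FaDU shTP63 replicate 1. For glycolysis genes the negative count was 1 in 9 of the 12 fits without 1 array, all but those without FaDU shControl replicate 2, JHU-029 shTP63 replicate 1 or FaDU shTP63 replicate 3. Distal 3q genes, from the chromosome arm that holds TP63, gave 6 positive and 8 negative of 39, and the negative count was 5 without JHU-029 shControl replicate 3 or JHU-029 shTP63 replicate 2 or 3. SOX2, the squamous lineage factor of that region, had a difference of -0.55 (SE 0.14, adjusted p = 0.0215) with a call in 8 of the 12 fits without 1 array. Hemidesmosome, integrin and laminin genes gave 4 positive and 6 negative of 28; the positive count was 2 without JHU-029 shControl replicate 1 or 3, any JHU-029 shTP63 array or FaDU shTP63 replicate 2. Retinoid metabolism genes passed only for ALDH1A3, a retinal dehydrogenase that rose in JHU-029 (-0.73), and ADH7; the negative count was 2 without FaDU shTP63 replicate 1 or 3. A second ALDH1A3 probe set gave -0.39 without a call (adjusted p = 0.0915). For TPI1, a glycolytic enzyme with a negative difference of -0.43, a second probe set gave 0.38 without a call (adjusted p = 0.452).

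Markers of other cell types were read beside these results, and their part in them was not tested. Among 13 fibroblast markers FBLN1 alone passed (0.26, with a call in 1 of the 12 fits without 1 array), and the summed intensity was 1396 to 1468 in FaDU shControl and 1578 to 1641 in FaDU shTP63, against 1294 to 1338 and 1354 to 1406 in JHU-029. The defining markers DCN and LUM had means of 3.15 to 3.31 and 3.23 to 3.25 over the 4 groups, at the dim end of the array. They do not stand for the whole list, of which 11 in FaDU shControl and 10 in JHU-029 shControl lay below the median of all genes. Among 14 immune markers CD14 (0.49) and LYZ (0.81) passed, in 7 and 9 of those 12 fits, with sums of 2683 to 2703 and 2765 to 3091 in FaDU and 2517 to 2639 and 2428 to 2545 in JHU-029. The leukocyte marker PTPRC had means of 3.37 to 3.55 over the groups, and 12 of the 14 control levels lay below the median of all genes in each line. Among 11 endothelial markers CDH5, VE-cadherin, passed. It read 8.69, 8.65 and 8.73 in FaDU shControl, 9.60, 9.72 and 9.74 in FaDU shTP63, 5.79, 5.94 and 5.97 in JHU-029 shControl and 5.90, 5.81 and 5.65 in JHU-029 shTP63. The endothelial sum, 1472 to 1552 in FaDU shControl and 2012 to 2093 in FaDU shTP63, was 533 to 578 and 505 to 598 in JHU-029. PECAM1 had means of 4.15 to 4.49 over the groups and no call. Of the 11 endothelial markers, 8 in FaDU shControl and 11 in JHU-029 shControl lay below the median of all genes.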

How the data were processed

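Total RNA of 12 samples was labelled with biotin and hybridised to 1 array each. Per the submitters' processing notes, the authors summarised the arrays by RMA in R 2.15.1, and the deposited values are linear intensity. No source at hand states if all 12 were normalised jointly. Of 32321 probe sets, 19158 carried 1 gene symbol, 1388 several and 11775 were not listed in the annotation given; 19128 matched by Entrez ID. The probe set with the highest mean stood for each of 18404 genes, 637 of which had more than 1. Values were put on a log2 scale and fitted with limma 3.58.1 (R 4.3.3) as 4 group means with eBayes, tested on simulated data. P-values were two-sided and adjusted over all genes. Precision is limited by there being 3 arrays per group.

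The members and lists were chosen with earlier results of these data known. Named genes were, among called differences, the 12 largest in each direction, up to 8 opposite responders per orientation, up to 8 with the larger JHU-029 response per direction, up to 8 with matched controls per direction, up to 6 per combination with controls at least 2 apart and up to 2 per list and direction, plus ACTL6A, WWC1, YAP1 and WWTR1. Other genes named in lists, and those with printed promoters, were chosen after their values were seen. Alternatives covered scaling, filters, probe choice, variance prior, replicate blocks, left-out arrays and weights on the JHU-029 effect. Genes with several or no symbols were left out.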

Additional observations from a re-analysis of the deposited data

Results flagged for a closer look

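Every called gene differed between the lines by the test of the difference itself, so the 2433 genes are given here as 1 count, with the 34 opposite responders singled out because both lines were called with opposite signs. 25 genes fell in FaDU and rose in JHU-029, and 9 rose in FaDU and fell in JHU-029. The 8 largest of the former had differences of -1.86 (SLC1A3), -1.63 (CA2), -1.46 (KITLG), -1.04 (NABP1), -0.99 (NDUFB1), -0.93 (POLR3G), -0.89 (ITGB6) and -0.84 (THBS1). The 8 largest of the latter had differences of 1.57 (YPEL3), 1.34 (SESN3), 1.19 (GOLGA7B), 0.94 (FST), 0.82 (NT5E), 0.76 (BCAM), 0.64 (VIPR1) and 0.58 (GRN).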

How the results depend on the processing

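The count of 2433 was 1395 with the replicate number as a fixed replicate block, 728 and 358 with the JHU-029 effect doubled and tripled, and 124 with a minimum difference of 1; without 1 array it lay between 1702 and 2509. The other settings gave 1926 (without the FaDU controls with an extra title word) to 3064 (linear intensity). The labels do not say that a replicate number marks a shared culture or day, so the numbers were not taken as pairing the samples. Same-numbered arrays correlated at -0.339 to 0.013 in their deviations, and a random replicate block gave 2029. Of the 34 opposite responders 12 remained under the fixed and 24 under the random block. Quantile and cyclic loess normalisation raised the share of positive differences from 37.6% to 45.7% and 45.8%. Of 162 named genes with a call, 18 lost it under the fixed block, 25 without the FaDU controls with an extra title word, 43 with the doubled and 84 with the tripled effect. Weighting the JHU-029 effect enlarges the SE of the difference by construction, and the cause of each loss was not tested. The sign was reversed on the linear scale for CLCA2 (188.53), CLDN1 (28.27), DSG3 (6.68), DUSP6 (26.03), IL1A (94.00), JAG1 (385.21), NRG1 (644.37) and TNS4 (130.06). It was reversed by construction with the doubled effect for TPI1 (0.41), WWC1 (-0.11), WWTR1 (-0.04) and YAP1 (0.00), and with the tripled effect for DUSP6 (0.03), MMP7 (-0.26), TGFB2 (-0.01), TPI1 (1.26), WWC1 (-0.42), WWTR1 (-0.11) and YAP1 (0.24). Without 1 array WWTR1 lay between -0.01 and 0.07. It was at -0.01 without the FaDU controls with an extra title word and without FaDU shControl replicate 1, and at -0.00 without JHU-029 shTP63 replicate 3 or FaDU shTP63 replicate 1. The arrays carry no detection call, so a signal near the dim end has no stated background.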
